A study of Mus musculus with 12 samples.

Results

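Open chromatin of mouse T cells was examined for stretches in which accessible regions crowd together. Peaks of 11 ATAC-seq libraries were merged into regions, those seen in 1 library alone were dropped, and neighbours separated by a gap of at most 12.5 kb were stitched into domains. A domain was called dense when it held 5 or more regions. Of 32752 kept regions, 5471 (16.7%) lay in 802 dense domains, out of 19093 stitched domains in all. The members were chosen from the peaks themselves, so the number, length, spacing and occupancy of the domains are a description.

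ATAC-seq uses the Tn5 transposase to cut and tag DNA that is not wrapped tightly in nucleosomes. The libraries came from 100000 sorted splenic CD4+ T cells each: Treg, positive for the GFP reporter of Foxp3, and Tconv, negative for it. WT mice were Foxp3-IRES-EGFP reporter animals, and KO mice carried the same reporter and lacked an enhancer that the labels place 70 kb from Lrrc32. Each of the 4 groups (WT Treg, KO Treg, WT Tconv, KO Tconv) had 3 libraries, and KO Treg replicate 2 was left out, which leaves 5 Treg and 6 Tconv libraries. The sources used here do not give age, sex, the number of animals or any pooling. A p-value therefore measures only how these libraries vary, and that variation may be technical.

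Foxp3 is the transcription factor that defines Treg, which restrain other immune cells. Lrrc32 encodes GARP, a surface protein that holds latent TGF-beta on Treg. Stretches with many open regions close together often contain several enhancers or promoters of genes used heavily by a cell, and stitching neighbouring regions is the usual first step in finding such clusters. Open chromatin alone does not tell an enhancer from a promoter. The peak lists are on NCBIM37, and no annotation of that build was used here, so domains are given by position without gene names, and the labelled cell types were not checked against marker genes.

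The 11 libraries had 21269 to 27605 peaks each, 270618 in all. KO Treg replicate 2 had 5262 peaks and a peak in 427 members (7.80%), against 3343 to 4218 members (61.1% to 77.1%) in the libraries used. Read depth is unknown. Peaks entered the lists at a −log10 p of about 5 (lowest value per list 5.01 to 5.06), so a region just under that limit counts as closed. Every KO Tconv library had more peaks (24649 to 25283) than every WT Tconv library (21269 to 24546), and the WT Treg libraries (22883 to 27605) spanned the 24689 and 25400 of KO Treg.

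Most dense domains were small. A dense domain held a median of 6 regions, with quartiles of 5 and 7 and a highest value of 30. There were 329 domains with 5 regions, 377 with 6 to 9, 77 with 10 to 14, 15 with 15 to 19 and 4 with more. Lengths ran from 8722 to 175720 bp, with a median of 31654 bp and quartiles of 25310 and 41847 bp. Just inside the threshold, the 329 domains of 5 regions had a median length of 25938 bp, and just outside it the 671 domains of 4 regions had one of 20125 bp. In 189 dense domains the next region outside lay within 15000 bp, barely beyond the stitching gap.

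**Figure D1:**
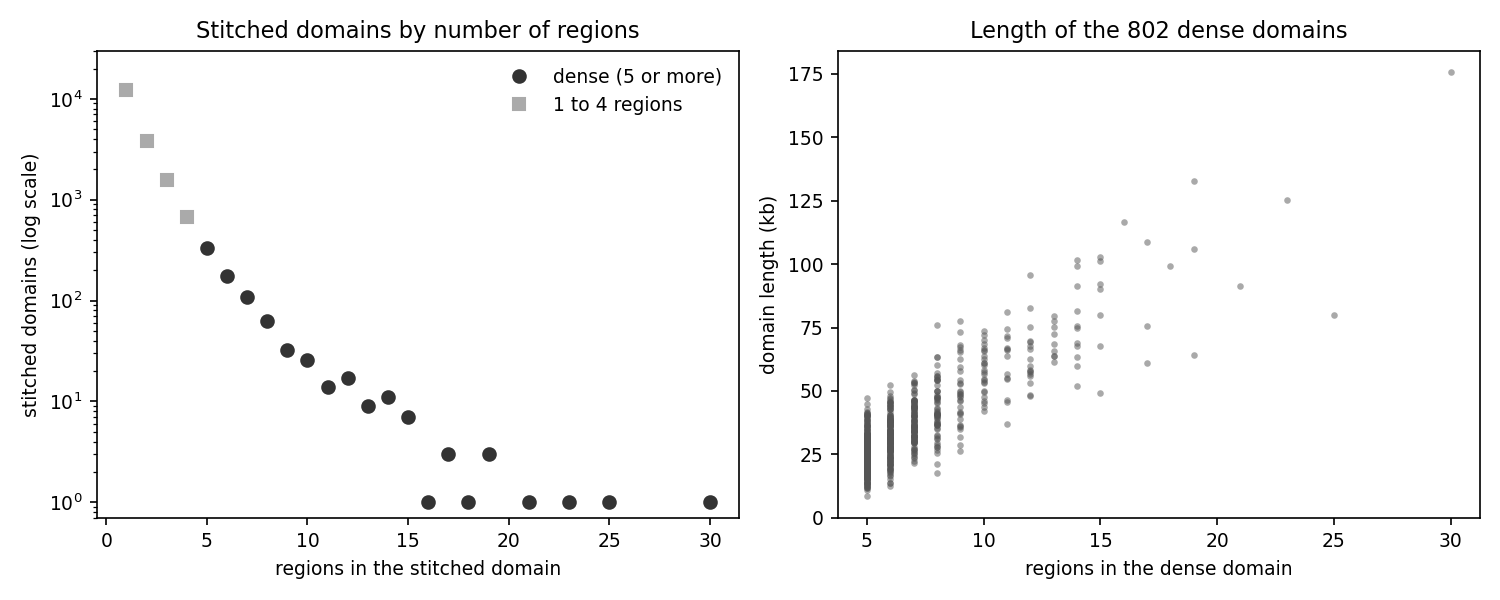
Left, the number of stitched domains (log scale) against the number of regions in the domain, with dense domains as dark circles and smaller ones as grey squares. Right, the length of each of the 802 dense domains in kb against its number of regions. Counts fall from 12207 single regions to 1 domain of 30 regions, which is also the longest at 175720 bp.

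The domains were mostly closed DNA between short open stretches. Summed over all of them, dense domains covered 29.0 Mb, of which regions made up 15.6%. The share ran from 5.56% to 63.6% per domain, with a median of 15.5%. Neighbouring regions lay a median of 4746 bp apart, with quartiles of 2419 and 7725 bp, against a median of 5498 bp in domains of 2 to 4 regions. Chromosome 11 had the largest share of its autosomal regions in dense domains (21.1%, 409 of 1935) and chromosome 5 the smallest (12.1%, 222 of 1830).

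Crowded regions were narrower and weaker than isolated ones. Members had a median width of 707 bp, against 813 bp for the 12207 isolated regions and 720 bp for the 15074 regions in domains of 2 to 4. Strength was taken as the percentile of a peak's −log10 p within its own list, averaged over the libraries with a peak. The median percentile was 31.0 for members, 36.3 in domains of 2 to 4 and 43.1 for isolated regions. Members had a peak in all 11 libraries in 39.4% of cases (2156 of 5471), against 43.1% and 49.7% in those classes. In each of the 11 libraries the share of members with a peak was lower than the share of isolated regions with a peak. The gap was smallest in WT Tconv replicate 2 (71.3% against 72.2%) and largest in WT Treg replicate 3 (63.6% against 71.2%).

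A typical dense domain held a strong region that all libraries shared. The strongest region of each domain had a median percentile of 72.1, against 26.7 for the other members, a gap that ranking within the domain creates in part. It had a peak in all 11 libraries in 87.5% of domains. It lay inside the domain, not at an end, in 499 of 802 domains (62.2%), beside 70.7% of all members that lie inside (3867 of 5471). End regions had a median percentile of 33.8 and interior regions 29.6. Of the 802 strongest regions, 37 were biased to a cell type in WT by the rule given next, and 33 in KO. Over all members the biased shares were 5.17% (Treg) and 2.32% (Tconv) in WT, and 6.56% and 4.31% in KO. A region open in all 11 libraries cannot be biased, so the low counts follow in part from the 87.5% above. Of the 802 domains, 742 (92.5%) had at least 1 region open in all 11 libraries, 11 had no other kind of region, and 60 had none. At 39.4% of members open in all 11 libraries, a domain of 5 or more regions is likely to hold 1 by number alone. The 742 is therefore no trait particular to these domains. The median domain had 40% of its regions open in all 11 libraries.

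Cell type bias was called by presence. A region was Treg-biased in WT when it was open in every WT Treg library (3 of 3) and in no WT Tconv library (0 of 3), and Tconv-biased in the reverse case. In KO the rule needed both Treg libraries and none of the 3 Tconv libraries, which is easier to meet. In WT, 283 members (5.17%) were Treg-biased, beside 5.74% of all 32752 regions, and 127 (2.32%) were Tconv-biased, beside 2.94% of all. In KO, 359 members (6.56%) were Treg-biased, beside 6.91% of all, and 236 (4.31%) were Tconv-biased, beside 4.75% of all. Each share among members was close to the share among all regions and below it, so bias was not concentrated in dense domains. The exact 95% Clopper-Pearson intervals, which cover counting error only, were 4.60% to 5.79% and 1.94% to 2.76% in WT, and 5.92% to 7.25% and 3.79% to 4.89% in KO.

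Part of the higher KO counts goes with the number of libraries. With only 2 of the 3 WT Treg libraries, as in KO, the WT calls were 431, 322 or 353 Treg-biased and 145, 205 or 156 Tconv-biased members, depending on the pair. The 359 Treg-biased members of KO lay inside the WT range, and the 236 Tconv-biased members lay above it. The WT Tconv count rose from 127 to 243 without WT Tconv replicate 3, which had the fewest peaks, and to 197 without WT Treg replicate 2, which had the most. The KO Tconv count rose to 428 without KO Treg replicate 3 and to 365 without KO Tconv replicate 2. A genotype difference in these counts was not tested. With 21269 top peaks taken from each library, 127 members were Treg-biased and 112 Tconv-biased in WT, against 191 and 152 in KO.

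Biased members were weaker and narrower than members at large. Their median percentile was 28.6 (Treg-biased) and 28.8 (Tconv-biased) in WT, against 31.0 over all members, and their median widths were 603 and 557 bp against 707 bp. The call shapes this comparison, since a biased region cannot be open in all 11 libraries and members at large can. By size of domain, WT Treg-biased regions made up 5.35% of the regions of domains with 5, 5.67% with 6 to 9 and 3.89% with 10 or more. The WT Tconv-biased shares of the same classes were 2.07%, 2.47% and 2.35%. End regions and interior regions of the domains had similar WT shares of Treg-biased regions (5.42% and 5.07%) and of Tconv-biased regions (1.81% and 2.53%). Chromosome X had 193 members. In WT 1 of them (0.518%) was Treg-biased and 2 (1.04%) were Tconv-biased, beside 2.17% and 1.68% of all 1013 regions on that chromosome. In KO the counts were 1 and 7 (3.63%), beside 4.15% and 3.26%.

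Per domain, biased regions were few and seldom took over. The counts below follow in part from the share of biased members and the number of regions per domain, and were not tested. In WT, 199 dense domains had at least 1 Treg-biased region, 111 had at least 1 Tconv-biased region, 21 had both and 513 (64.0%) had neither. In KO the counts were 244, 194, 52 and 416 (51.9%). The mean share of Treg-biased regions per domain was 5.36% ± 11.3 in WT and 6.61% ± 12.2 in KO (SD over 802 domains). The mean share of Tconv-biased regions was 2.29% ± 6.32 and 4.37% ± 9.27. The SD exceeded the mean in each case, because most domains sat at 0 and a few reached high shares. At least 40% of regions were Treg-biased in 25 domains in WT and 34 in KO, and Tconv-biased in 3 and 12. The highest shares were 80% Treg-biased in WT and in KO, and 66.7% and 83.3% Tconv-biased. At least 3 regions were Treg-biased in 17 domains in WT and 27 in KO, and Tconv-biased in 2 and 8.

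Few neighbouring pairs were both biased, but neighbours of a Treg-biased member were Treg-biased more often than members at large. Among 4669 neighbouring pairs in dense domains in WT, 33 were both Treg-biased, 3 were both Tconv-biased and 6 had opposite bias. In KO the counts were 48, 16 and 20. A neighbour of a WT Treg-biased member was itself Treg-biased in 13.8% of cases, against 19% in domains of 2 to 4 regions and 13.5% across gaps too wide to stitch. For WT Tconv-biased members the share was 2.67%, which rests on the 3 pairs above, against 12.1% and 9.62%. In KO the shares were 15.8% against 23.4% and 16.5% for Treg-biased members, and 7.96% against 12.5% and 9.92% for Tconv-biased ones. Over all members the biased shares were 5.17% (Treg) and 2.32% (Tconv) in WT, and 6.56% and 4.31% in KO. All these shares are a description of regions that share libraries and were not tested.

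WT bias was carried by KO libraries, which had no part in the WT calls. Of the 283 members Treg-biased in WT, KO Treg replicates 1 and 3 had a peak at 86.9% and 86.6%, and the 3 KO Tconv libraries at 18.7%, 22.3% and 18.0%. The groups did not overlap, and the means of 86.7% and 19.7% differed by 67.1 percentage points (exact permutation p = 0.1, two-sided, n = 2 and 3). Of the 127 members Tconv-biased in WT, the KO Treg libraries had a peak at 6.30% and 13.4%, and the KO Tconv libraries at 76.4%, 70.9% and 78.0% (means 9.84% and 75.1%, exact permutation p = 0.1, n = 2 and 3). The smallest p that 2 against 3 libraries allow is 0.1, so neither test could pass 0.05. Over all 5471 members, KO Treg libraries had a peak at 69.5% and 72.6% and KO Tconv libraries at 68.7% to 72.4%, which shows how far the biased members departed from the rest. KO Treg replicate 2 had a peak at 7 of the 283 (2.47%).

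In the reverse direction the separation was smaller for Tconv bias. Members Treg-biased in KO had a peak in 70.3% of cases on average in WT Treg and 5.66% in WT Tconv (exact permutation p = 0.1, n = 3 per group, smallest possible 0.1). Members Tconv-biased in KO had one in 28.7% on average in WT Treg and 73.2% in WT Tconv (exact permutation p = 0.1, n = 3 per group). The WT Treg libraries ranged from 17.4% to 37.7% at these KO Tconv-biased members, so many of them were open in some WT Treg library. Called in both genotypes were 148 Treg-biased members (52.3% of the WT calls and 41.2% of the KO calls) and 55 Tconv-biased members (43.3% and 23.3%). No member switched from one bias to the other between genotypes. At the level of domains, 146 had Treg-biased regions in both genotypes (73.4% of those in WT and 59.8% of those in KO) and 65 had Tconv-biased regions in both (58.6% and 33.5%).

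**Figure D2:**
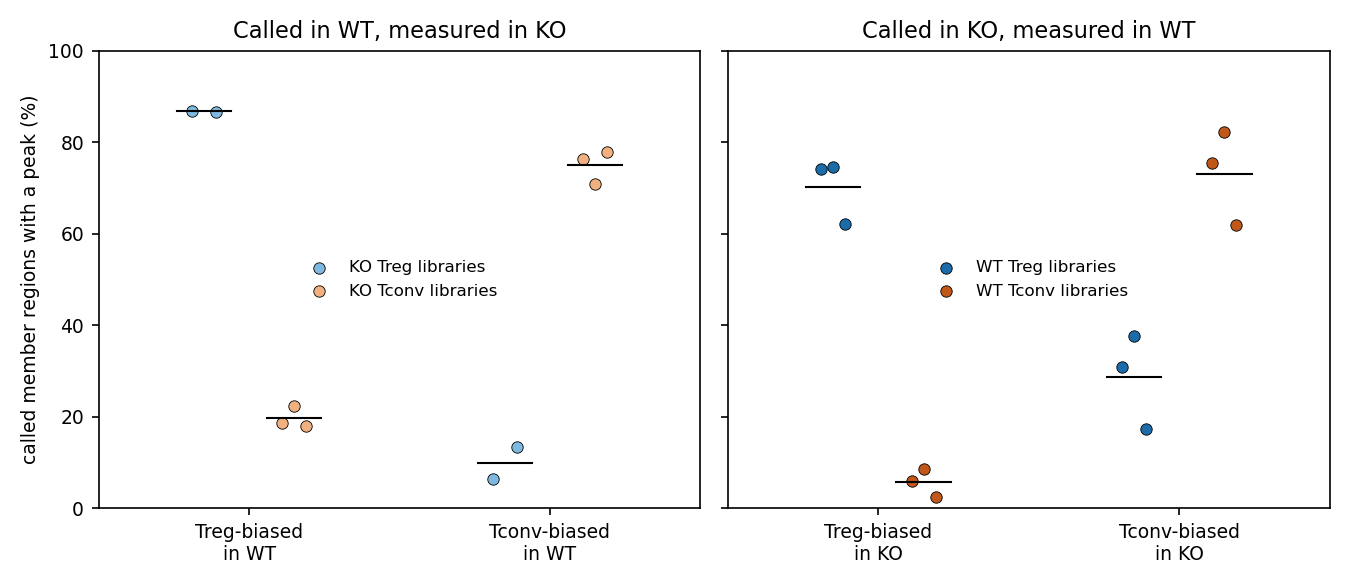
Percent of biased member regions with a peak in the libraries of the other genotype. Left, members called in WT and measured in KO libraries; right, members called in KO and measured in WT libraries. Each point is a library and each line a group mean. At regions Treg-biased in WT, the 2 KO Treg libraries sit at 86.6% and 86.9% and the 3 KO Tconv libraries between 18.0% and 22.3%.

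The share of a domain's regions with a peak, called its occupancy, was then compared between groups with limma, which pools the spread over libraries and domains. The fit covered all stitched domains whose occupancy varied (12081), and 791 of the dense domains entered it, the other 11 having all regions open in every library. With Benjamini-Hochberg adjustment over all 12081 and a threshold of 0.05, 114 dense domains (14.4%) were more occupied in Treg, beside 17.1% of all domains tested, and 71 (8.98%) in Tconv, beside 9.98% of all. Among those called, the size of the difference ran from 5.56 to 90 percentage points in Treg and from 10.1 to 86.1 in Tconv, with medians of 33.3 and 26.7. The median difference over all dense domains tested was 0.56 percentage points toward Treg, against 4.17 over all domains. The balance of the calls depended on scaling. When each library was centred on its own share over all kept regions, 96 dense domains were higher in Treg and 106 in Tconv, and with 21269 top peaks per library 64 and 71.

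These calls describe the domains and are no independent test. A region was kept for a peak in any 2 libraries, whatever their cell type, but 551 members (10.1%) had peaks in Treg libraries alone and 518 (9.47%) in Tconv libraries alone, beside 11.4% and 9.30% of all kept regions. Such a region had to be higher in the cell type that let it in, so no p-value is given for the Treg minus Tconv difference of a single domain. To keep the choice of regions apart from the comparison, domains were also built from the 6 WT libraries alone (579 dense) and compared in KO, and built from the 5 KO libraries alone (537 dense) and compared in WT, an alternative chosen after seeing the data. With the spread set to at least that of independent regions, 0 dense domains passed limma in either direction in KO or in WT, beside 0% of all. At an unadjusted p under 0.05 there were 21 for Treg and 7 for Tconv among 539 tested in KO, and 45 and 8 among 513 tested in WT. No share over all domains stands beside these unadjusted counts, so nothing is read from them. Even complete separation did not pass that fit. Built from WT libraries, chr16:84971869-85001043 had 5 regions, at 0% in KO Treg and 100% in KO Tconv libraries. Built from KO libraries, chr2:102788029-102822312 had 4 regions, at 100% in WT Treg and 0% in WT Tconv libraries. The 0 counts therefore cannot tell whether occupancy differs. With limma's own spread, 39 (7.24%) passed for Treg and 34 (6.31%) for Tconv in KO, beside 14.1% and 11.6% of all, and 50 (9.75%) and 15 (2.92%) in WT, beside 13.4% and 6.8%. On simulated data that last fit called unchanged domains in KO and missed changed ones in WT, so nothing is read from its counts.

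Calls did not mean that the groups were fully apart. In 64 of the 114 domains called for Treg and 17 of the 71 called for Tconv, no Treg library overlapped any Tconv library (56.1% and 23.9%). Over all domains called, dense or not, the shares were 40% (826 of 2065) and 34.9% (421 of 1206). Among all 12081 domains tested 6.84% lay apart toward Treg and 3.48% toward Tconv, against 64 and 17 of the 791 dense ones. At least 1 region open in all 11 libraries lay in 95 of the 114 and 62 of the 71, so in most of them the difference was in some regions beside a shared one. Within WT alone 87 and 24 dense domains passed, beside 11.2% and 5.44% of all domains, and within KO alone 78 and 37, beside 12.3% and 7.62%. With the spread of independent regions, 0 passed within WT alone and 0 within KO alone, beside 0% of all domains in each. The WT and KO differences, taken from separate libraries, had Pearson's r = 0.77 and Spearman's rho = 0.69 across the 791 domains, a description with no p, since domains share libraries. The regions were kept on peaks pooled over both genotypes, so the 2 differences are not independent. With the spread set to at least that of independent regions, an alternative chosen after seeing the data, 45 and 14 dense domains stayed called, beside 6.03% and 2.92% of all. The Tconv count fell to 38 without KO Treg replicate 1 and to 47 without WT Tconv replicate 2.

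**Figure D3:**
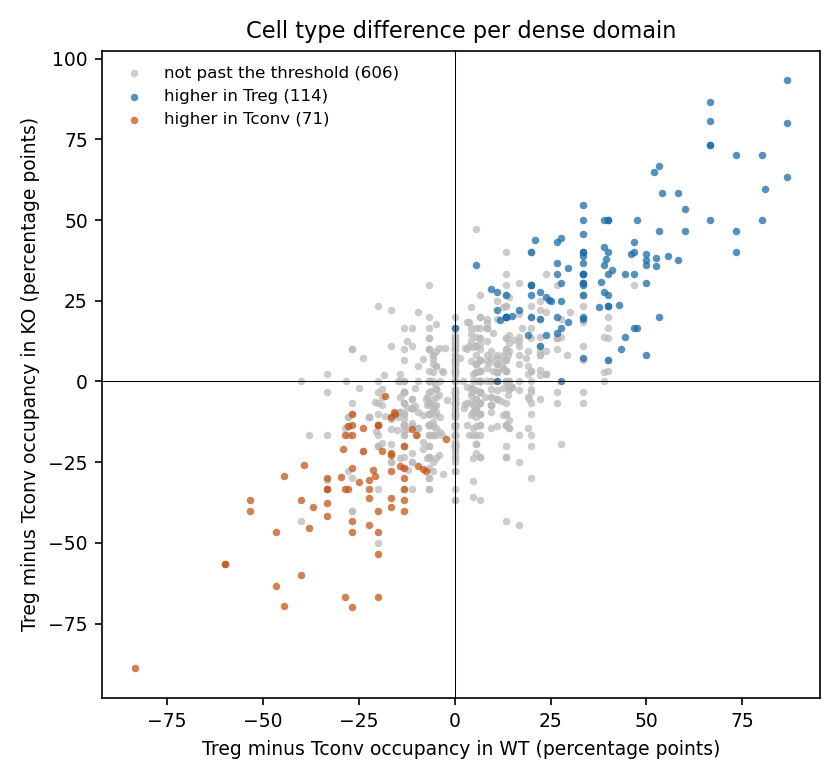
Treg minus Tconv occupancy of each of 791 dense domains in WT (x axis) and KO (y axis), in percentage points. Blue points are the 114 domains higher in Treg by limma over both genotypes, orange points the 71 higher in Tconv, grey points the 606 not past the threshold. The calls used the mean of both axes, so the place of the coloured points follows in part from the call.

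The dense domain with the largest Treg difference was chr5:3494440-3517365, of 22926 bp and 5 regions. It had a peak at 5, 4 and 4 regions in the WT Treg libraries and at 5 and 5 in KO Treg, against 0, 0 and 0 in WT Tconv and 1, 0 and 0 in KO Tconv. Every Treg library was above every Tconv library, and the means differed by 90 percentage points. Built from KO libraries alone it also had 5 regions, of which WT Treg libraries had 80% to 100% and WT Tconv libraries 0%. Built from WT libraries alone it had 4 regions, of which both KO Treg libraries had 100% and KO Tconv libraries 0% to 25%. The domain was picked for its difference over all 11 libraries, so these rebuilt versions are a description and no independent check. Treg-biased regions numbered 4 of 5 (80%) in WT and 4 in KO, but not the same 4. The region at 3509586 to 3509785, of 200 bp, had a peak in 1 WT Treg library, and the region at 3501406 to 3502953 had one in 1 KO Tconv library. No region of this domain was open in all 11 libraries, and its strongest had a percentile of 50.5.

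In 4 other short domains most regions were open in Treg libraries and few in any Tconv library. The domain chr8:63740184-63768160 had a peak at 5, 4 and 4 of 5 regions in WT Treg, 5 and 5 in KO Treg, 0 in each WT Tconv library and 2, 0 and 1 in KO Tconv (a difference of 83.3 percentage points). In chr15:5707134-5728058 no Tconv library had a peak at any of 5 regions, and the Treg libraries had 4, 5 and 3 in WT and 3 and 4 in KO (75 percentage points). The groups stayed apart here although 1 region, at 5717261 to 5717977, had a peak in only 1 WT and 1 KO Treg library. The other members of the set were chr2:135688094-135717824 (76.7 percentage points) and chr2:78799698-78821987 (75). In the latter, the region at 78799698 to 78800887 was open in all 3 KO Tconv libraries. None of these domains had a region open in all 11 libraries.

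**Figure D4:**
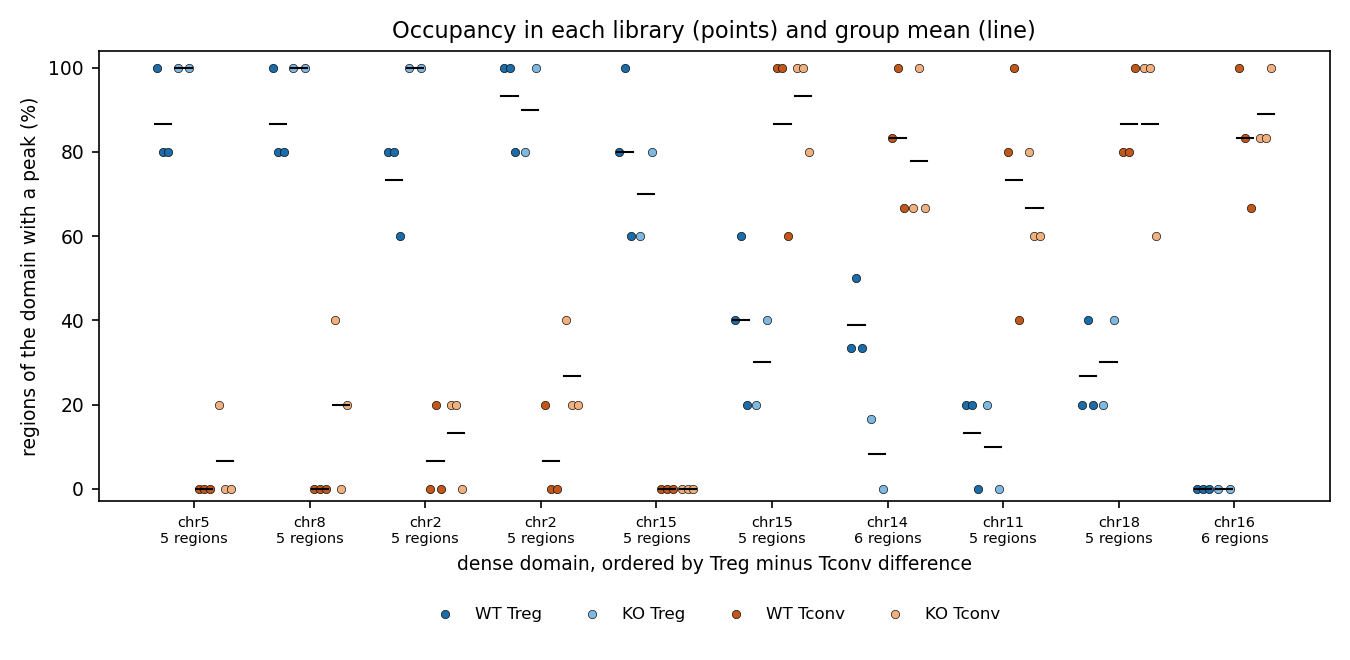
Percent of a domain's regions with a peak in each library, for the 5 dense domains with the largest occupancy difference toward Treg (left) and toward Tconv (right). Points are libraries, coloured by group, and lines are group means. In the domain at the far left Treg libraries lie at 80% or 100% and Tconv libraries at 0% or 20%, and in the one at the far right all 5 Treg libraries lie at 0%.

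Larger domains combined Treg-biased regions with shared ones. The domain chr16:89817061-89849788 had 7 regions in 32728 bp, of which 5 were Treg-biased in WT and 3 in KO. WT Treg libraries had a peak at 7, 7 and 6 regions, KO Treg at 6 and 7, WT Tconv at 1, 1 and 1, and KO Tconv at 2, 3 and 2 (a difference of 70.2 percentage points). The 1 region that every library shared, at 89837097 to 89838303, was also the widest at 1207 bp. The strongest, at 89825978 to 89826565 with a percentile of 63.3 ± 7.41 (SD, n = 5 libraries), was Treg-biased in both genotypes.

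The domain chr1:60909786-60977690 had 15 regions in 67905 bp, 5 of them Treg-biased in WT and 4 in KO. Treg libraries had a peak at 14, 13 and 12 regions in WT and 12 and 14 in KO, and Tconv libraries at 6, 7 and 6 in WT and 7, 8 and 9 in KO. The cell types did not overlap, and the difference was 38.9 percentage points. Its strongest region, at 60969354 to 60970598, was Treg-biased in both genotypes with a percentile of 79.1 ± 5.64 (SD, n = 5 libraries). Next to it, the region at 60967572 to 60968892 was Treg-biased in WT, but had a peak in 2 of 3 KO Tconv libraries. The same held for the region at 60925059 to 60925738, so both left the KO count. KO Tconv exceeded WT Tconv in this domain by 11.1 percentage points, which did not pass (limma adjusted p = 0.712).

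Among the domains with the most Treg-biased regions were also chr2:102788029-102845203 (5 of 8 regions in WT, 2 in KO) and chr1:21279773-21335168 (4 of 8 in WT, 3 in KO). Their Treg minus Tconv differences were 47.9 and 44.8 percentage points. Each had 2 regions open in all 11 libraries.

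The largest difference toward Tconv was in chr16:84971869-85001043, of 29175 bp and 6 regions. No Treg library of either genotype had a peak in it, whereas WT Tconv libraries had 6, 5 and 4 and KO Tconv libraries 5, 5 and 6. The difference was 86.1 percentage points toward Tconv. Built from WT libraries alone it had 5 regions, all with a peak in each KO Tconv library and none in a KO Treg library. Built from KO libraries alone it had 5 as well, of which WT Tconv libraries had 80% to 100% and WT Treg libraries 0%. This domain too was picked on all 11 libraries, so the rebuilt versions are no independent check. Tconv-biased regions numbered 4 of 6 (66.7%) in WT and 5 (83.3%) in KO, the highest shares of any dense domain. The strongest of them, at 84982560 to 84983486, had a percentile of 68.2 ± 11.3 (SD, n = 6 libraries), and the region at 84990238 to 84990443, of 206 bp, had a peak in 2 libraries only.

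The next domains toward Tconv were less complete. In chr11:53953603-53976882 the Tconv libraries had a peak at 4, 5 and 2 of 5 regions in WT and 4, 3 and 3 in KO, and the Treg libraries at 1, 1 and 0 in WT and 1 and 0 in KO. In chr18:70758575-70782584 the Tconv counts were 4, 4 and 5 of 5 in WT and 5, 5 and 3 in KO, against 1, 2 and 1 in WT Treg and 1 and 2 in KO Treg. Both differed by 58.3 percentage points, with no overlap between cell types. The domain chr14:53956743-53994830 had 3 regions Tconv-biased in KO and 0 in WT, and occupancies of 77.8% or more on average in Tconv. In chr15:94043958-94066043 3 regions were Tconv-biased in KO and 1 in WT, and a WT Tconv library with 3 of 5 regions met a WT Treg library with 3. The interaction of genotype and cell type did not pass in either (limma adjusted p = 0.809 and 0.899).

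Other domains with the most Tconv-biased regions in WT held 2 each. In chr3:141943805-141974880 the Tconv libraries had a peak at 3 to 5 of 5 regions and the Treg libraries at 1 or 2. In chr2:173261906-173281091 and chr16:45991317-46023245 the differences were 20 and 19.05 percentage points toward Tconv. Both calls were lost with stricter peaks and with equal numbers of peaks, and without single libraries among KO Treg and KO Tconv in the former and 8 of the 11 libraries in the latter.

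Treg-biased and Tconv-biased regions also lay in the same domain. The domain chr14:122382418-122473687 had 21 regions in 91270 bp, with 2 Treg-biased and 3 Tconv-biased in WT and 1 and 4 in KO. Its Tconv libraries had a peak at 14, 16 and 13 regions in WT and 14, 16 and 15 in KO, and its Treg libraries at 11, 12 and 10 in WT and 13 and 13 in KO. A WT Tconv library thus met both KO Treg libraries at 13, and the difference was 12.7 percentage points toward Tconv. The Tconv-biased regions lay at 4290, 28546 and 42701 bp from its start and the Treg-biased ones at 74725 and 89889 bp. Its strongest region, shared by all 11 libraries like 6 others, had a percentile of 80.7 ± 5.98 (SD, n = 11 libraries).

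**Figure D5:**
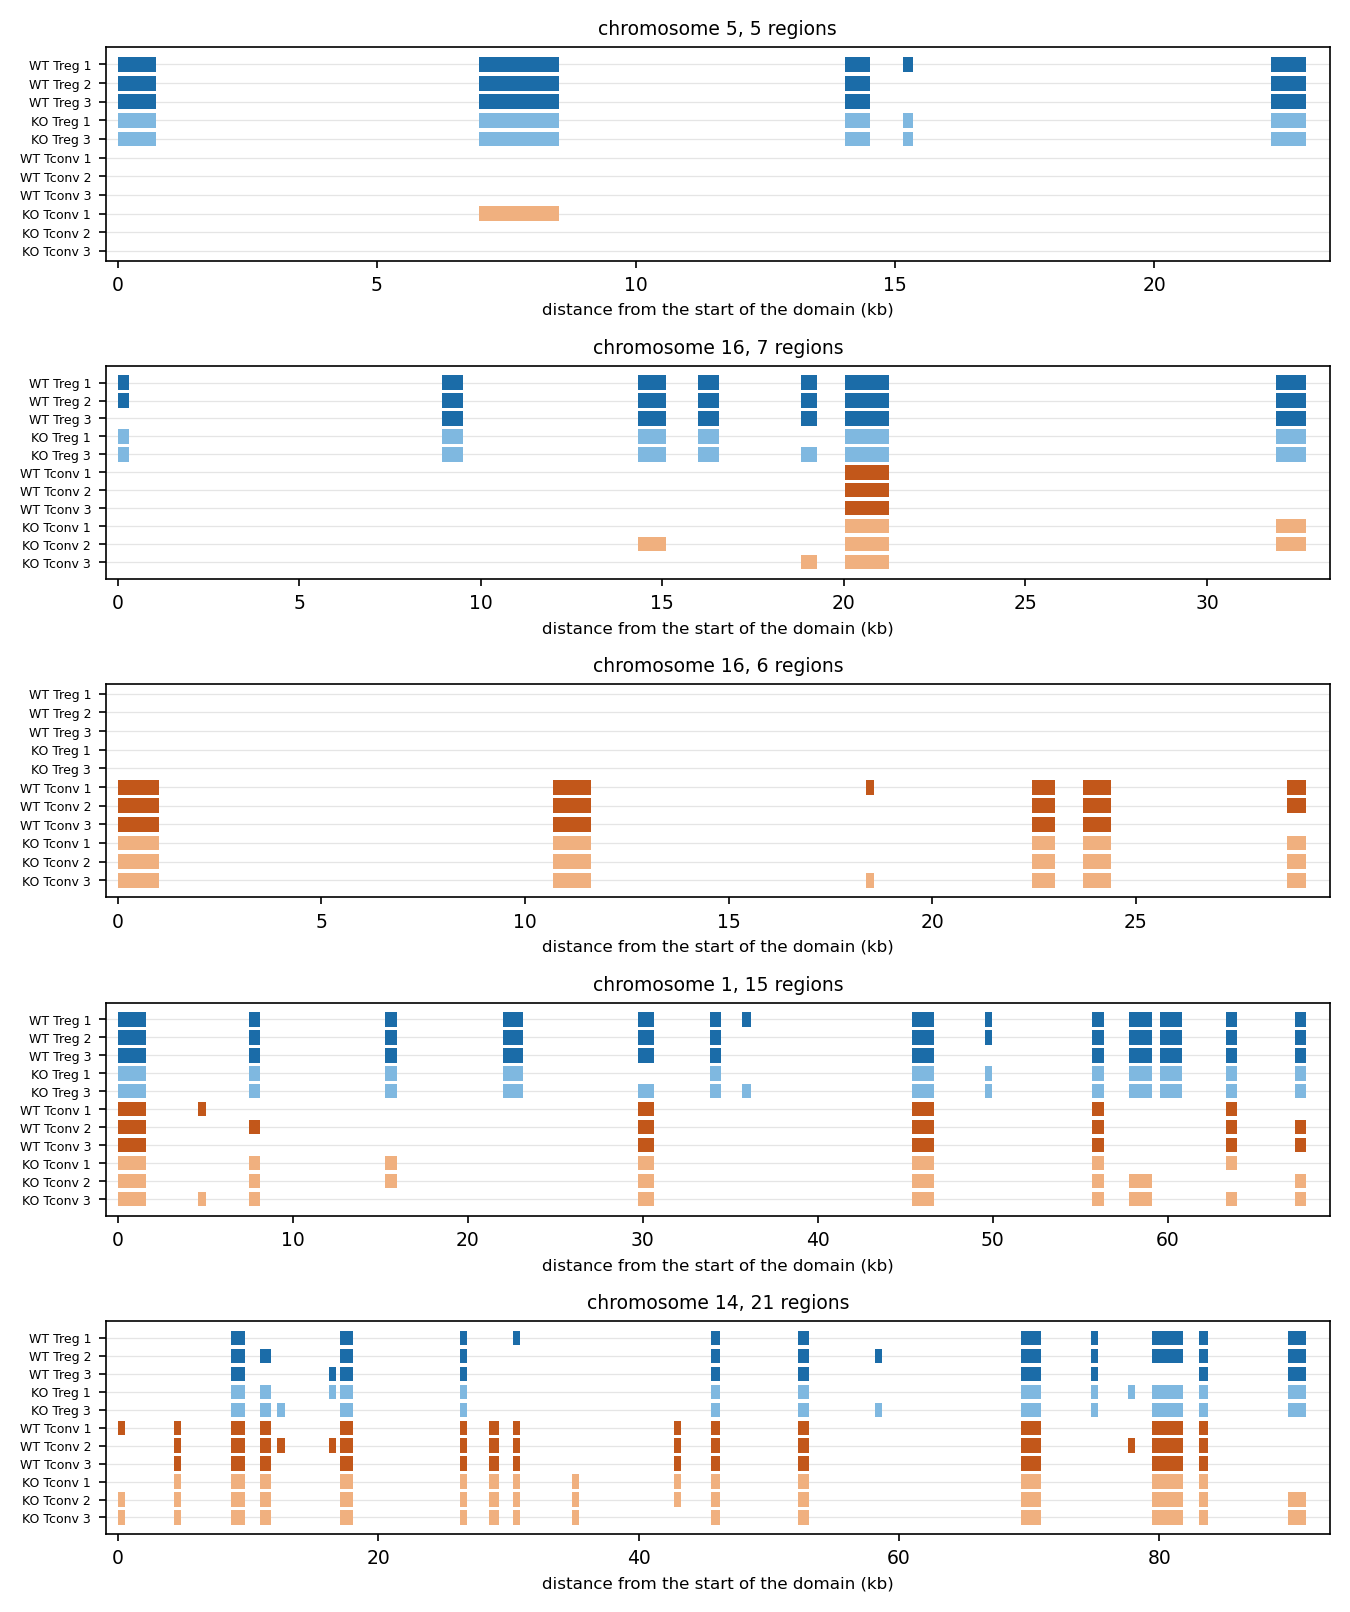
Peaks in 5 dense domains by library. The x axis is the distance from the start of the domain in kb, each row is a library, and each block is a region at which that library has a peak, drawn over the whole region and widened where it would be too thin to see. From the top: the domain on chromosome 5 with 5 regions, those on chromosome 16 with 7 and 6 regions, and those on chromosome 1 with 15 and chromosome 14 with 21 regions. Blocks are missing from the Tconv rows in the first, from the Treg rows in the third, and from both in different places in the last.

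Most of the largest domains had few biased regions in WT. The domain of 21 regions described above was an exception, with 2 Treg-biased and 3 Tconv-biased in WT and 1 and 4 in KO. The domain of 23 regions described below had 5 Treg-biased regions in KO. The domain chr12:74646321-74822040 had the most regions (30) and the greatest length (175720 bp), with 11 regions open in all 11 libraries. It had 1 Treg-biased region in WT, and 2 Treg-biased and 2 Tconv-biased regions in KO. Its counts were 25, 26 and 21 in WT Treg, 21 and 21 in KO Treg, 18, 21 and 15 in WT Tconv and 22, 21 and 22 in KO Tconv, which overlap. The next in number, chr11:3023531-3103296, packed 25 regions into 79766 bp with a median gap of 1527 bp, and 44.2% of it lay in regions. Its highest fold ratio, 5.37, was the lowest such value of the domains named, although its strongest region had a percentile of 96.4. The reason was not tested. The domain chr11:11556425-11688990, with 19 regions in 132566 bp, had no biased region in WT. The long domains chr7:134324331-134440754 and chr2:18819453-18928203 had none in WT either.

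Of the 5 domains with the most regions, chr4:144784244-144909633 stood toward Treg. It had 23 regions in 125390 bp, and its Treg libraries had a peak at 17, 20 and 19 in WT and 21 and 18 in KO. The Tconv libraries had 13 in each WT library and 14, 14 and 13 in KO. The ranges did not overlap, with a difference of 25 percentage points. One WT region and 5 KO regions were Treg-biased, and 10 regions were open in all 11 libraries.

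Few dense domains were called between KO and WT, in the same fit and on regions kept from the same libraries. A region kept through peaks of 1 genotype alone had to be higher in that genotype. These calls are therefore a description too, and no p-value is given for a single domain that passed. In Treg, 0 passed as more occupied in KO, beside 0.977% of all domains, and 2 in WT, beside 0.762% of all. At an unadjusted p under 0.05 the counts were 22 and 20. In Tconv, 2 passed as more occupied in KO, beside 0.455% of all, and 1 in WT, beside 0.157% of all, with 49 and 8 at an unadjusted p under 0.05. The interaction of genotype and cell type passed in 3 dense domains, with a larger Treg minus Tconv difference in KO in 1, beside 1.08% of all, and in WT in 2, beside 1.12% of all. The unadjusted counts of the interaction were 9 and 22. These unadjusted counts are among 791 dense domains tested and have no share over all domains beside them. Some domains pass that limit with no difference at all, so nothing is read from the counts. With the spread of independent regions, 0 dense domains passed in any of these comparisons, beside 0% of all domains.

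In Treg, both domains that passed had peaks at fewer regions in KO libraries than in WT libraries. The domain chr6:11987479-12032373 had a peak at 4, 4 and 4 of 5 regions in WT Treg and at 1 and 2 in KO Treg, and at 3, 3 and 4 in WT Tconv and 4, 3 and 4 in KO Tconv. KO Treg was 50 percentage points lower than WT Treg, and the interaction did not pass (limma adjusted p = 0.0775). The regions at 12009604 to 12010407 and at 12019326 to 12020003 were open in each WT Treg library and in neither KO Treg library. In chr10:70680991-70710296 the counts were 4, 4 and 4 of 5 in WT Treg, 3 and 2 in KO Treg, 3, 3 and 3 in WT Tconv and 4, 4 and 4 in KO Tconv. KO was 30 percentage points lower in Treg, and the interaction, which also passed, was 50 percentage points toward WT. No region of that domain was biased in either genotype, and the 4 counted in the WT Treg libraries were not the same 4 throughout. Its regions that varied between libraries had percentiles of 15.7, 22.8 and 37.6. Every library had the same count within WT Treg, within WT Tconv and within KO Tconv, which lowers the fitted spread.

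In Tconv, the calls rested on 1 region per library in 2 of 3 domains, and in the second of these it was not the same region throughout. In chr6:47600833-47635921 all Treg libraries and all KO Tconv libraries had a peak at 9 of 9 regions, and each WT Tconv library at 8, which gives 11.1 percentage points more in KO. The region that differed, at 47600833 to 47601316, had a percentile of 14.3 ± 5.76 (SD, n = 8 libraries), toward the weak end of the lists. In chr10:13702170-13738183 the count was 4 of 6 in every WT and KO Treg and WT Tconv library and 3 in every KO Tconv library, 16.7 percentage points less in KO Tconv. Its 3 varying regions had percentiles of 6.56 to 11.97. Among them, the one at 13724678 to 13724870 had a peak in 2 WT Tconv libraries and in no other library. The remaining WT Tconv library had a peak at 13736206 to 13736536 instead. In both domains every library of a group had the same count, so the fitted spread was small. The third, chrX:121433338-121458926, had a peak at 2, 2 and 1 of 8 regions in WT Tconv and at 6, 7 and 5 in KO Tconv, 54.2 percentage points more. KO Treg libraries had 4 and 4 there and WT Treg libraries 1, 3 and 1, a difference that did not pass (limma adjusted p = 0.502). Its region at 121457994 to 121458926 had a peak in the 3 KO Tconv libraries and in no other library, at a percentile of 3.99. The 8 regions of this domain had a median percentile of 8.73 and a highest of 24.7, also toward the weak end of the lists. The domain lies in a stretch of chromosome X, described under the other observations, where KO libraries had a peak at more members than WT libraries.

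Stitching each library by itself, without the merged regions, gave no difference between groups. WT Treg libraries had 395, 502 and 270 dense domains of their own, KO Treg 349 and 398, WT Tconv 342, 412 and 251, and KO Tconv 384, 336 and 407. The ranges of the groups overlapped, and the spread within WT Treg (389 ± 116, SD, n = 3) was wider than any gap between group means. Treg exceeded Tconv by 25.9 domains within genotype (exact permutation p = 0.565), and KO exceeded WT by 12.6 within cell type (exact permutation p = 0.835). Over 8 such tests of number, share of peaks, median length and median size, the lowest Benjamini-Hochberg adjusted exact permutation p was 0.954, while the smallest possible unadjusted p was 0.005. The signs of the differences in number and in share of peaks turned with equal numbers of peaks per library, and also without single WT libraries. The share of a library's peaks in its own dense domains ran from 7.13% to 11.7%, and the median length of those domains from 29249 to 31292 bp. KO Treg replicate 2 had 7 dense domains of its own, holding 1.05% of its peaks.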

How the data were processed

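Each library has a list of broad peaks that the authors deposited, assigned as the deposit records it. The sample numbers inside the peak names follow another order than the numbers of the deposit, and the sources used here do not say which order is the original, so all group assignments rest on the deposit record. The build is NCBIM37, per the submitters' processing notes, which also list MACS2, Bowtie2, DESeq2, DiffBind and Trim Galore 0.4.4 without saying what each did. For every peak the authors' caller gave 4 deposited values: a score, a fold ratio, a −log10 p and a −log10 q. They ranked or filtered peaks inside their own list here, and libraries were compared by presence of a peak (at least 1 bp). No count test was run, since the lists hold no counts. The sources used here do not state input, read filters or a shift of cut sites. Members and lists were chosen with earlier results of these data known. The domains named are the 5 with the most regions, the 5 longest, the 5 with most Treg-biased and most Tconv-biased regions in WT, the 5 with the largest called difference in each direction, and those called for genotype or interaction. Occupancy was fitted with limma 3.58.1 (R 4.3.3; a mean per group, trend on the log2 number of regions), tested on simulated data. Other steps used Python 3.11.15, pandas 2.3.3 and scipy 1.17.1. Coordinates are 1-based. Planned gene and marker lists were not run, since no NCBIM37 annotation was used here.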

Additional observations from a re-analysis of the deposited data

Results flagged for a closer look

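The Treg minus Tconv difference in occupancy was itself called different between genotypes, by limma's interaction, in 3 dense domains. Regions were kept from the same libraries, so these calls are a description. At chr10:70680991-70710296 the difference was 50 percentage points lower in KO (an interaction of -50 ± 6.46, SE), with KO Treg libraries at 3 and 2 of 5 regions and WT Treg libraries at 4 each. At chr6:47600833-47635921 the interaction was -11.11 and at chr10:13702170-13738183 it was 16.67. In both of the latter, 1 region more or less per library made the difference, and every library within a group had the same number of regions with a peak. With the spread of independent regions, none of the 3 passed.

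KO Treg replicate 2, which no comparison uses, had a peak in 427 members. That is 7.80% of members, against 20.7% of isolated regions in the same library. The other 11 libraries had a peak at 61.1% to 77.1% of members.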

How the results depend on the processing

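Limits: the lists give no read depth, so a closed region cannot be told from a weak one. KO against WT in Treg rests on 2 KO libraries. The carry-over of WT bias (67.1 and -65.2 percentage points) kept its sign under every alternative run, from 39.0 to 72.8 and from -70.9 to -44.1, and also without single libraries (ranges given last). Except where a setting changes the domains counted or the samples used by construction, the cause of a change was not tested. Counts below follow 1 order: dense domains; Treg-biased and Tconv-biased members in WT; the same in KO; domains called for Treg, for Tconv, for KO against WT in Treg, in Tconv, and for the interaction.

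A stitching gap of 5000 bp gave 123; 31 and 16; 48 and 21; 11, 5, 0, 1 and 1 (fitted without limma's trend, which could not be fitted there). A gap of 25000 bp gave 1752; 727 and 370; 873 and 670; 285, 186, 8, 7 and 10. At least 3 regions per domain gave 3037; 678 and 370; 826 and 618; 416, 293, 23, 10 and 24. At least 10 regions gave 96; 48 and 29; 75 and 50; 8, 8, 0, 0 and 0. Stricter peaks gave 416; 101 and 65; 182 and 99; 59, 23, 2, 0 and 1. Equal numbers of peaks gave 508; 127 and 112; 191 and 152; 64, 71, 3, 0 and 1. Regions from at least 1 library gave 1315 dense domains, 184 called for Treg and 4 for KO against WT in Treg, and from at least 3 libraries 1 call each for KO against WT in Treg and Tconv. All 12 libraries gave 5 Treg-biased members in KO and 14, 37, 0, 0 and 0 calls. A bias rule of a share higher by at least 2 in 3 gave 696 and 456 in WT and 540 and 529 in KO. WT Treg pairs moved the WT counts up to 431 and 205.

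For occupancy, 50% coverage gave 36 calls for Tconv. Covered length gave 46 for Tconv, and 0, 0 and 0 for genotype and interaction. Centring gave 0 for KO against WT in Treg and 0 for the interaction, and testing domains of at least 2 regions gave 1 for KO against WT in Treg. The spread of independent regions, added after seeing the data, gave 45, 14, 0, 0 and 0. Domains built from WT libraries and compared in KO, also added later, gave 39 for Treg and 34 for Tconv, and those built in KO and compared in WT 50 and 15. Each was 0 with the spread of independent regions, under which even complete separation did not pass. The deviations of libraries of equal number were weakly correlated within genotype (0.080, 0.029 and 0.083 in WT, -0.0039 and 0.013 in KO). Weak correlations cannot decide whether libraries of equal number share an animal, and the labels do not say. A replicate block of genotype and number gave 81 and 44 calls and 13 for the interaction, and a block of the number alone, added after seeing the data, 1 for KO against WT in Treg and 5 for the interaction.

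Of the domains named, the Treg minus Tconv sign turned in 3: at chr6:47600833-47635921 with all 12 libraries (-5.56), at chr10:13702170-13738183 with stricter peaks (-13.9), equal peaks (-5.56) and all 12 libraries (-2.78), and at chr16:45991317-46023245 by covered length (1.49). Stitching libraries alone, equal peaks turned the differences to -15.8 domains (Treg minus Tconv) and -13.8 (KO minus WT), and to -0.467 and -0.346 percent of peaks. All 12 libraries gave -35.2, -48.5, -1.04 and -1.12, and a gap of 25000 bp -0.046 percent of peaks for Treg minus Tconv.

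Without single libraries there were 755 to 786 dense domains, 261 to 415 and 118 to 243 biased members in WT, and 337 to 457 and 227 to 428 in KO. Calls ran from 87 to 131 for Treg, 38 to 85 for Tconv, 1 to 6 and 2 to 5 for KO against WT in Treg and Tconv, and 3 to 7 for the interaction. KO against WT in Treg gave 6 without WT Treg replicate 3, 5 without WT Tconv replicate 3, 4 without KO Treg replicate 3 and 1 without WT Tconv replicate 2 or KO Tconv replicate 3. In Tconv, 5 passed without WT Treg replicate 1. The interaction gave 7 without KO Tconv replicate 2, 6 without WT Treg replicate 3 and 5 without WT Treg replicate 1, either KO Treg replicate, WT Tconv replicate 3 or KO Tconv replicate 1. Without either KO Treg replicate the lone library left was assumed to vary like the other groups. Carry-over ran from 57.1 to 68.4 and from -68.5 to -48.4. Libraries stitched alone gave -2.33 to 55.7 domains (below 0 without WT Treg replicate 2) and -17.2 to 40.8 (below 0 without WT Treg or WT Tconv replicate 3), and -0.156 to 0.957 and -0.301 to 0.812 percent of peaks.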

Other observations

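The following were noticed in the values and carry no test. The 9 regions of chr6:47600833-47635921 were evenly spaced: their starts lay 4286 ± 149 bp apart (SD over 8 steps, 4037 to 4478 bp). The SD was 3.48% of the mean, the lowest of the 802 dense domains, whose median was 53.3%. The next lowest among the 190 domains of at least 8 regions was 14.6%, at chr12:92962356-93038241. The 8 regions of the chromosome 6 domain that were open in all 11 libraries had widths of 536 to 805 bp and percentiles of 83.2 to 92.6.

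On chromosome X, 15 of the 23 dense domains lay between 120112666 and 122028690, with 144 members of median percentile 15.9. KO libraries had a peak at more of these 144 than WT libraries of the same cell type. The shares were 65.3% and 62.5% in KO Treg against 52.8%, 45.1% and 29.9% in WT Treg, and 70.8%, 72.2% and 76.4% in KO Tconv against 42.4%, 61.8% and 40.3% in WT Tconv. At the other 49 members on chromosome X the shares were 63.3% and 71.4% against 61.2%, 63.3% and 57.1% in Treg, and 75.5%, 73.5% and 79.6% against 69.4%, 75.5% and 59.2% in Tconv. The stretch was chosen after its values were seen. Repeats and copies were not examined, since no genome of the build was used here.

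The domain with the largest open share (63.6%) was chrY:2850452-2902405, with 14 regions in 51954 bp, 11 of them open in all 11 libraries. The largest domain whose regions were open in every library was chr4:88402979-88452271, with 15 regions in 49293 bp.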
